A study of Mus musculus with 24 samples.

Results

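The genes described here are 10 genes of oxidative and acute-phase defence at the gut surface: *Duox2*, *Duoxa2*, *Nox1*, *Nos2*, *Gpx1*, *Gpx2*, *Lcn2*, *Saa1*, *Saa2* and *Dmbt1*. They were chosen by symbol, each symbol had 1 row, and all 10 of them had counts, among 56691 genes listed and 34471 with a count in at least 1 library. RNA from the distal jejunum of 24 mice was sequenced, 1 library for each mouse, and sex, genotype and treatment defined 8 groups of 3 mice. Wild type (WT) males and females and males and females with a germline disruption of *Ptk6* (*Ptk6*-/-), which codes for a kinase of the epithelium, drank either regular water (control) or water with 100 mM succinate for 7 days. According to the methods of the study, all mice came from 1 colony on the C57BL/6 background, from different litters, and were 9 to 11 weeks old at the end. The comparisons address how these genes differ with genotype, with succinate and between the sexes.

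The products of these genes act on or just beneath the epithelial surface. DUOX2 is an NADPH oxidase of the apical membrane that releases hydrogen peroxide towards the lumen, and it needs its maturation factor DUOXA2 to leave the endoplasmic reticulum, whereas NOX1 is a superoxide-producing oxidase best known from the colon. GPX1 and GPX2 are selenium-dependent glutathione peroxidases that remove peroxides inside the cell, GPX2 being the form typical of gut epithelium. Inducible nitric oxide synthase (NOS2) makes nitric oxide from arginine. Lipocalin 2 (LCN2) binds bacterial siderophores, serum amyloids A (SAA1 and SAA2) are acute-phase proteins that the gut epithelium also makes in response to microbes, and DMBT1 is a secreted scavenger protein that binds bacteria.

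Total counts were 8080321 to 52824743 per library (median 43017686.5). Levels are given as CPM, read counts scaled to library size with TMM factors, or, where genes are compared with each other, as the deposited FPKM, which is per length of transcript. *Ptk6* itself had 7 to 61 counts in the 12 *Ptk6*-/- libraries and 284 to 2405 in the 12 WT libraries. In 3 libraries the RNA stood apart. Male WT control replicate 1 had 51.2% of its reads on 18S RNA and male *Ptk6*-/- succinate replicate 1 had 29.7%, where the other 22 libraries had 0.108% to 4.49%, and heart muscle genes summed to 14093.8 CPM in replicate 2 of the female WT mice on succinate, against at most 193.9 CPM elsewhere. Main results are therefore also given without these 3 libraries. Lung genes summed to 5.88 to 16.5 CPM in the 6 female *Ptk6*-/- libraries and 14.3 CPM in replicate 3 of the female WT mice on succinate, against at most 0.717 CPM in the other libraries, so that they run with genotype in the female controls, and their part in the genotype values of females was not tested. Epithelial markers (*Epcam*, *Vil1*, *Cdh1* and *Krt8*) summed to 5992 to 14445 CPM, and those of the distal small intestine were present in every library. Markers of neutrophils summed to 1.20 to 42.1 CPM. In tissue of mixed cells, fewer cells of a type and less RNA per cell cannot be told apart.

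By FPKM the genes fell into abundant and scarce ones. *Gpx2* had the highest FPKM of the 10 genes in 12 of 24 libraries, *Dmbt1* in 5, *Gpx1* in 4 and *Duoxa2* in 3. The medians over the 24 libraries that follow leave out no library. The median FPKM was 107 for *Duoxa2*, 47.8 for *Duox2* and 22.8 for *Nos2*. At the other end, *Nox1* had a median FPKM of 0.135, and *Saa2* and *Nox1* took the last rank in every library between them. *Duoxa2* was above *Duox2* in every library, by a ratio of 1.23 to 11.3, whereas *Nos2* held ranks 2 to 8.

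*Duox2* (ENSMUSG00000068452, chromosome 2, 122109728 to 122128930, minus strand; GRCm39, the build named in the submitters' processing notes) and *Duoxa2* (ENSMUSG00000027225, chromosome 2, 122129381 to 122133366, plus strand) are head-to-head neighbours with 450 bases between them. Their promoter windows are shown because the genes are neighbours whose products work as a pair. The sequences are RefSeq's (GRCm38.p6), which had a promoter window for 8 of the 10 genes, and run 5′ to 3′ over the 200 bases before each gene's annotated start, at chr2:122298228-122298427 on the minus strand and chr2:122298700-122298899 on the plus strand. These RefSeq starts lie farther apart than the 450 bases between the deposited genes. The *Duox2* window may therefore lie within the deposited span of *Duox2* and not in the gap. Capitals mark matches, on either strand, to 9 motifs that were searched in the 250 bases before the start: the TATA box with the letters TATAAA, the CCAAT box with CCAAT, the GC box with GGGCGG, the STAT motif with TTCNNNGAA, the C/EBP motif with TTGCNNAA, the antioxidant response element with TGACNNNGC, the CDX motif with TTTATNG, and the STAT6 and NF-kB motifs.
Duox2: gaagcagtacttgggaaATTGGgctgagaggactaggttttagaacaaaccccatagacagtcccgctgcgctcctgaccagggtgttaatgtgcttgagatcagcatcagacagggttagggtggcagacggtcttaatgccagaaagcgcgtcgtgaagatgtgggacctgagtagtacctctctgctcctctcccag
Duoxa2: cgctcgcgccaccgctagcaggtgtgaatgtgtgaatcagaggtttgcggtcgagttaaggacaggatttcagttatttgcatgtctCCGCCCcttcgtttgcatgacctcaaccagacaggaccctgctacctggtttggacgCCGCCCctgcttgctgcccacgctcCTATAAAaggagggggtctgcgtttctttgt
The *Duoxa2* window held a TATA box 30 bases before the start, where it overlaps a CDX match, and GC boxes 113 and 56 bases before it. The *Duox2* window held none of these letters and 1 CCAAT box, 183 bases before the start. Over all 32851 promoter windows of the table, 12.4% held TATAAA, 32.7% a GC box, 33.8% a CCAAT box and 9.81% a CDX match, so that a match to these short motifs is common.

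*Duoxa2* rose after succinate. In WT males its level was 69.1, 126 and 139 CPM in the controls and 194, 538 and 891 CPM on succinate. For *Ptk6*-/- males it was 104, 114 and 202 CPM in the controls and 242, 401 and 282 CPM on succinate. The libraries of the treatments did not overlap in either genotype of the males. In WT females it was 223, 149 and 40.6 CPM in the controls and 1263, 1098 and 553 CPM on succinate. In *Ptk6*-/- females it was 117, 153 and 395 CPM in the controls and 572, 1244 and 755 CPM on succinate. By CPM, every mouse on succinate thus had more *Duoxa2* than every control of its own sex and genotype. Averaged over the 4 combinations of sex and genotype, *Duoxa2* was higher by 2.05 ± 0.30 (log2, SE, 24 libraries; adjusted p = 7.93e-04, edgeR's quasi-likelihood test). In the single combinations the log2 difference was 2.28 ± 0.54 in WT males, 1.17 ± 0.33 in *Ptk6*-/- males, 2.84 ± 0.65 in WT females and 1.93 ± 0.55 in *Ptk6*-/- females, and with 3 mice against 3 none of these passed the adjustment over all genes. Over 13 alternative settings the value in *Ptk6*-/- males was 0.48 to 1.27. By FPKM, which is distorted in replicate 1 on succinate, these males overlapped (57.2 to 94.4 in the controls, 35.2 to 180 on succinate). Whether the increase differed between genotypes was tested, and the difference (*Ptk6*-/- minus WT) was -1.14 ± 0.82 in males (adjusted p = 1) and -0.87 ± 0.82 in females (adjusted p = 0.85). Without the 3 libraries that stood apart, the averaged increase kept its call (adjusted p = 0.00684), and it was 1.91 to 2.22 when any 1 library was left out. *Duoxa2* overlaps *Duoxa1* on the opposite strand by 695 bases, and whether strand was used in counting is not given in the sources used here.

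*Duox2* was also higher on average after succinate, but was not called by edgeR. Its level in WT males was 124, 209 and 280 CPM in the controls and 466, 260 and 533 CPM on succinate, and in WT females 330, 106 and 69.0 CPM in the controls and 733, 576 and 810 CPM on succinate. The treatments overlapped in the WT males and not in the WT females. Control *Ptk6*-/- males had 308, 360 and 616 CPM and those on succinate 217, 733 and 556 CPM, and for *Ptk6*-/- females the values were 279, 530 and 282 CPM and 591, 468 and 1276 CPM, with overlap in both. Averaged over sex and genotype, the log2 difference was 1.11 ± 0.27 (adjusted p = 0.0513). Over 12 alternative settings the adjusted p was 0.00166 to 0.308, with a call in 7 of them, and leaving out 1 library gave a call in 5 of 24 fits: without replicate 1 of the male WT, male *Ptk6*-/- or female *Ptk6*-/- mice on succinate, replicate 3 of the female WT mice on succinate or replicate 1 of the female WT controls. The ratio of *Duoxa2* to *Duox2* FPKM within a library does not depend on its depth, but it compares genes of unlike length. Its median was 2.38 in the male WT controls and 7.11 in the male WT mice on succinate. The ranges overlapped (2.11 to 2.56 and 1.77 to 8.80). In WT females the median ratio was 2.87 in the controls and 7.33 on succinate, also with overlapping ranges (2.50 to 5.99 and 2.90 to 8.11). The slope of a library's levels with gene length varied too. In replicate order, WT males on succinate had slopes of 0.088, -0.073 and -0.051 and ratios of 1.77, 8.80 and 7.11. WT females on succinate had slopes of -0.101, 0.004 and 0.039 and ratios of 7.33, 8.11 and 2.90. In the controls, the ratio was 1.35 to 1.43 in *Ptk6*-/- males, under the range of the WT males, whereas in *Ptk6*-/- females it was 1.23 to 5.96. On succinate it was 2.16 to 4.74 in *Ptk6*-/- males, without overlap with their controls. In *Ptk6*-/- females on succinate it was 2.52 to 11.3, with overlap. The slopes with gene length did not overlap either where the ratios of the males did not. They were -0.053 to 0.008 in the WT and 0.079 to 0.111 in the *Ptk6*-/- male controls. In *Ptk6*-/- males on succinate they were -0.155 to 0.040. The part of these slopes in the ratios was not tested.

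*Nox1* (ENSMUSG00000031257, X chromosome, 132987170 to 133038460) was close to the limit of detection, taken as 3 counts in a library. It had 0 to 182 counts per library, and 20 of 24 libraries had more than 3. The counts on succinate were 182, 7 and 9 in WT males and 0, 0 and 11 in WT females, so that a single mouse set the mean of the former group. No comparison called *Nox1*, and averaged over all libraries its log2 difference was -1.10 ± 0.68 for succinate (adjusted p = 0.43) and -1.71 ± 0.68 for females against males (adjusted p = 0.249). The sex value was -1.03 without replicate 1 of the male WT mice on succinate, the mouse with 182 counts, and -2.99 without replicate 3 of the female WT mice on succinate. *Nox1* overlaps *Cstf2* on the opposite strand by 399 bases.

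*Gpx2* rose after succinate, and *Gpx1* was not called. *Gpx2* (ENSMUSG00000042808, chromosome 12, 76839107 to 76842273, minus strand) lies within *Fntb*, which is on the opposite strand. The 200 bases before its start (chr12:76795555-76795754 of GRCm38.p6, minus strand) are shown because it was among the genes that rose, and capitals again mark motif matches.
Gpx2: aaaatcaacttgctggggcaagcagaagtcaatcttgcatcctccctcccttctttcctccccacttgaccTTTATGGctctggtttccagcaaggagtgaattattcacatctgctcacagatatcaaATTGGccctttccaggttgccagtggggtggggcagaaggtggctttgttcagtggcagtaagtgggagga
The matches are a CDX motif 129 bases and a CCAAT box 71 bases before the start, and TGACNNNGC, found in 10.2% of all windows, does not occur in these letters. In WT males *Gpx2* was at 362, 450 and 487 CPM in the controls and 482, 1339 and 1950 CPM on succinate. Among *Ptk6*-/- males it was at 288, 492 and 591 CPM in the controls and 1850, 516 and 896 CPM on succinate. In both genotypes of the males 1 mouse on succinate lay within the control range. In WT females it was at 681, 957 and 482 CPM in the controls and 3455, 2490 and 871 CPM on succinate. In *Ptk6*-/- females it was at 374, 465 and 1690 CPM in the controls and 1332, 2679 and 1346 CPM on succinate. The females, too, overlapped in each genotype. Averaged over sex and genotype, *Gpx2* was higher by 1.39 ± 0.31 (log2, SE; adjusted p = 0.0304, edgeR's quasi-likelihood test). This call was lost without the 3 libraries that stood apart (1.20, adjusted p = 0.142). It was also lost when any 1 of 15 of the 24 libraries was left out, with adjusted p up to 0.0745: replicates 1, 2 and 3 of the male WT controls, 2 and 3 of the male WT mice on succinate, 1 and 2 of the male *Ptk6*-/- controls, 1 of the male *Ptk6*-/- mice on succinate, 1 and 3 of the female WT controls, 1 and 2 of the female WT mice on succinate, 1 and 2 of the female *Ptk6*-/- controls, and 2 of the female *Ptk6*-/- mice on succinate.

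*Gpx1* (ENSMUSG00000063856, chromosome 9, 108216102 to 108217542, plus strand) varied least of the abundant genes. It shares 1210 bases with ENSMUSG00000121068 on the opposite strand, and as for *Duoxa2* the use of strand in counting is not given. It was at 149 to 346 CPM in the 12 controls (median 233) and at 184 to 650 CPM in the 12 mice on succinate (median 276). The averaged difference was 0.51 ± 0.21 on the log2 scale (adjusted p = 0.24). The ratio of *Gpx2* to *Gpx1* FPKM was 2.00 to 2.90 in all 6 females on succinate, against 0.673 to 2.31 in the 6 female controls, so that the sets overlapped by 1 control mouse. Within WT females the treatments did not overlap (0.673 to 1.26 in the controls and 2.00 to 2.86 on succinate). Nor did they in WT males (0.700 to 0.960 and 1.19 to 2.40). They overlapped in *Ptk6*-/- males (0.878 to 1.44 and 1.10 to 2.79) and *Ptk6*-/- females (1.07 to 2.31 and 2.10 to 2.90).

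*Nos2* (ENSMUSG00000020826, chromosome 11, 78811613 to 78851080, plus strand) fell after succinate, and the 6 females on succinate had the lowest median level of the 4 combinations of sex and treatment. In WT females it was at 201, 119 and 72.8 CPM in the controls and 3.31, 4.74 and 35.8 CPM on succinate. For *Ptk6*-/- females it was at 225, 396 and 296 CPM in the controls and 20.7, 1.87 and 2.98 CPM on succinate. All 6 females on succinate lay below all 6 female controls. In WT males it was at 100, 184 and 222 CPM in the controls and 129, 49.2 and 26.0 CPM on succinate. Among *Ptk6*-/- males it was at 402, 183 and 367 CPM in the controls and 110, 1056 and 256 CPM on succinate. The male treatments overlapped in both genotypes, and the mouse with the highest *Nos2* of all 24, at 1056 CPM, was a *Ptk6*-/- male on succinate. Averaged over sex and genotype, the log2 difference was -2.26 ± 0.47 (adjusted p = 0.0214). The difference was -3.15 ± 0.94 in WT females and -5.20 ± 0.97 in *Ptk6*-/- females, -1.31 ± 0.56 in WT males, and 0.57 ± 0.75 in *Ptk6*-/- males. The test of whether the succinate effect differed between the sexes gave -3.80 ± 0.94 (females minus males, edgeR adjusted p = 0.168), and this passed the threshold with DESeq2 (adjusted p = 0.0196), without replicate 3 of the female WT mice on succinate (-4.73, adjusted p = 0.0143) or without replicate 1 of the female *Ptk6*-/- mice on succinate (-4.70, adjusted p = 0.0305). The averaged succinate effect missed the threshold without the 3 libraries that stood apart (-2.10, adjusted p = 0.073) and without replicate 2 or replicate 3 of the male WT mice on succinate (adjusted p = 0.0512 and 0.0543).

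**Figure D1:**
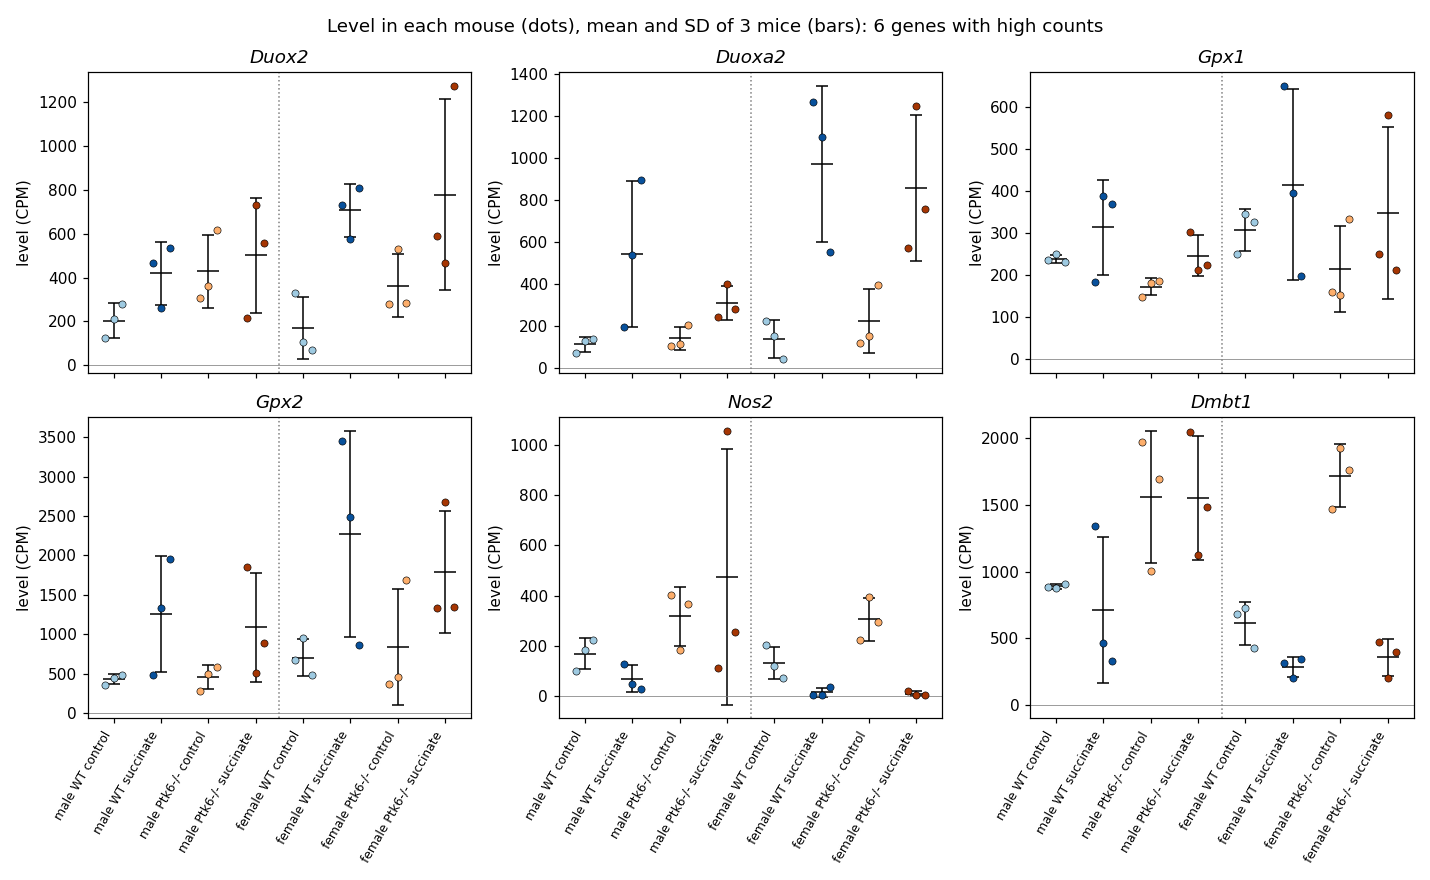
Levels of *Duox2*, *Duoxa2*, *Gpx1*, *Gpx2*, *Nos2* and *Dmbt1* in CPM (vertical axes, linear) in the 8 groups (horizontal axis), where each dot is 1 mouse and the bars give the mean and SD of 3 mice; a bar may run under 0 where 1 mouse lies far above the others. *Duoxa2* on succinate lies above the controls of the same sex and genotype throughout, and *Nos2* in the 6 females on succinate lies at 1.87 to 35.8 CPM.

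*Dmbt1* (ENSMUSG00000047517, chromosome 7, 130633776 to 130723357, plus strand) followed *Nos2* in the females. Its level was 681, 723 and 427 CPM in the WT female controls and 315, 201 and 341 CPM on succinate. Among *Ptk6*-/- females it was 1466, 1930 and 1761 CPM in the controls and 471, 200 and 397 CPM on succinate. All 6 females on succinate but 1, at 471 CPM, were below all 6 female controls, and within each genotype the treatments did not overlap. In males the controls had 881, 875 and 908 CPM (WT) and 1974, 1008 and 1691 CPM (*Ptk6*-/-), and the mice on succinate 1341, 461 and 328 CPM (WT) and 2049, 1122 and 1486 CPM (*Ptk6*-/-). No shift with treatment was apparent in *Ptk6*-/- males, where the log2 difference was 0.05 ± 0.42, against -2.30 ± 0.42 in *Ptk6*-/- females. Averaged over sex and genotype, *Dmbt1* was lower on succinate by a log2 difference of -0.92 ± 0.22, which passed the adjusted p (0.0431) but not the threshold of 2-fold. The succinate effect differed between the sexes by -1.52 ± 0.44, which did not pass the adjustment (edgeR adjusted p = 0.236). *Dmbt1* lies within the deposited span of *Fgfr2*, on the opposite strand.

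The acute-phase genes were scarcer and less even between mice. *Saa1* (ENSMUSG00000074115, chromosome 7, 46389921 to 46392404, minus strand) and *Saa2* (ENSMUSG00000057465, chromosome 7, 46401214 to 46403737, plus strand) are near-identical, divergent copies with 8809 bases between them, so that reads shared by both may have been split between them in counting. Their promoter windows are shown because they are nearly the same while the levels of the genes were far apart: of the 250 bases before the start, 94.8% of aligned positions were identical. The 200 bases nearest the start lie at chr7:46742981-46743180 (minus strand) and chr7:46751633-46751832 (plus strand) of GRCm38.p6, with the C/EBP match in capitals.
Saa1: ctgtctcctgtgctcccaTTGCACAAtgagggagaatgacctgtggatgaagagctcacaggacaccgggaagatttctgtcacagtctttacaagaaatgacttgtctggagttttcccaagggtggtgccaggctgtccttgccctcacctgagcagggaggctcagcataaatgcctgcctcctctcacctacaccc
Saa2: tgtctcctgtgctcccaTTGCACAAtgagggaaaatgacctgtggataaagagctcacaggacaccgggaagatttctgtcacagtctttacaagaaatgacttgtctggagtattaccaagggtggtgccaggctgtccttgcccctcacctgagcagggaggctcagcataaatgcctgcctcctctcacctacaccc
The C/EBP motif, present in 9.56% of all windows, was the only match of the 9 motifs in either window. *Saa1* had 41 to 2245 counts per library and *Saa2* 0 to 40.

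In WT males *Saa1* was at 6.23, 10.2 and 12.5 CPM in the controls and 3.90, 17.2 and 5.06 CPM on succinate. Among *Ptk6*-/- males it was at 6.22, 12.7 and 22.9 CPM in the controls and 310, 49.5 and 27.1 CPM on succinate. The *Ptk6*-/- males on succinate were thus above their controls and above all other males, 1 of them by far. In WT females it was at 23.3, 48.5 and 8.28 CPM in the controls and 9.60, 17.2 and 1.06 CPM on succinate. For *Ptk6*-/- females it was at 10.9, 29.7 and 59.2 CPM in the controls and 2.28, 12.5 and 1.36 CPM on succinate. The female treatments overlapped in both genotypes. The log2 difference with succinate was 3.32 ± 1.01 in *Ptk6*-/- males and -2.65 ± 0.93 in *Ptk6*-/- females, and neither passed the adjustment over all genes (edgeR adjusted p = 0.6 and 0.42). The value in *Ptk6*-/- females was -4.22 to -1.93 when any 1 library was left out. The succinate effect differed between the sexes by -3.60 ± 1.01 (edgeR adjusted p = 0.225; adjusted p = 0.0358 with DESeq2). The mouse at 310 CPM is the library of 8080321 counts with 29.7% 18S RNA, which also had the highest sum of distal small intestine markers (9495 CPM against at most 3823 CPM elsewhere); without it and the other libraries in doubt, the log2 difference in *Ptk6*-/- males was 1.45. The part of these features in the *Saa1* level was not tested.

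*Saa2* was at or near the limit of detection. Its counts were 0, 26 and 24 in the male WT controls and 34, 34 and 40 in the male *Ptk6*-/- controls, and 7, 29 and 0 and 3, 21 and 7 in the female WT and *Ptk6*-/- controls. On succinate they were 31, 35 and 29 in WT males, 0, 12 and 10 in *Ptk6*-/- males, and 0 in all 6 females. With 3 counts as the limit, these 6 libraries allow up to 3 counts each, so no fold change is given against them, and a count this low in the female controls leaves little to compare. *Lcn2* (ENSMUSG00000026822, chromosome 2, 32274645 to 32277809, minus strand) had 27 to 275 counts per library and was at 0.61 to 7.94 CPM in 23 of the 24 libraries. The remaining one, again replicate 1 of the male *Ptk6*-/- mice on succinate, was at 14.8 CPM from 54 counts. The other mice of that group were at 2.42 and 2.64 CPM. The averaged differences of *Lcn2* were 0.07 ± 0.35 for succinate, -0.00 ± 0.29 for genotype and 0.01 ± 0.35 for sex, each with an adjusted p of at least 0.965.

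**Figure D2:**
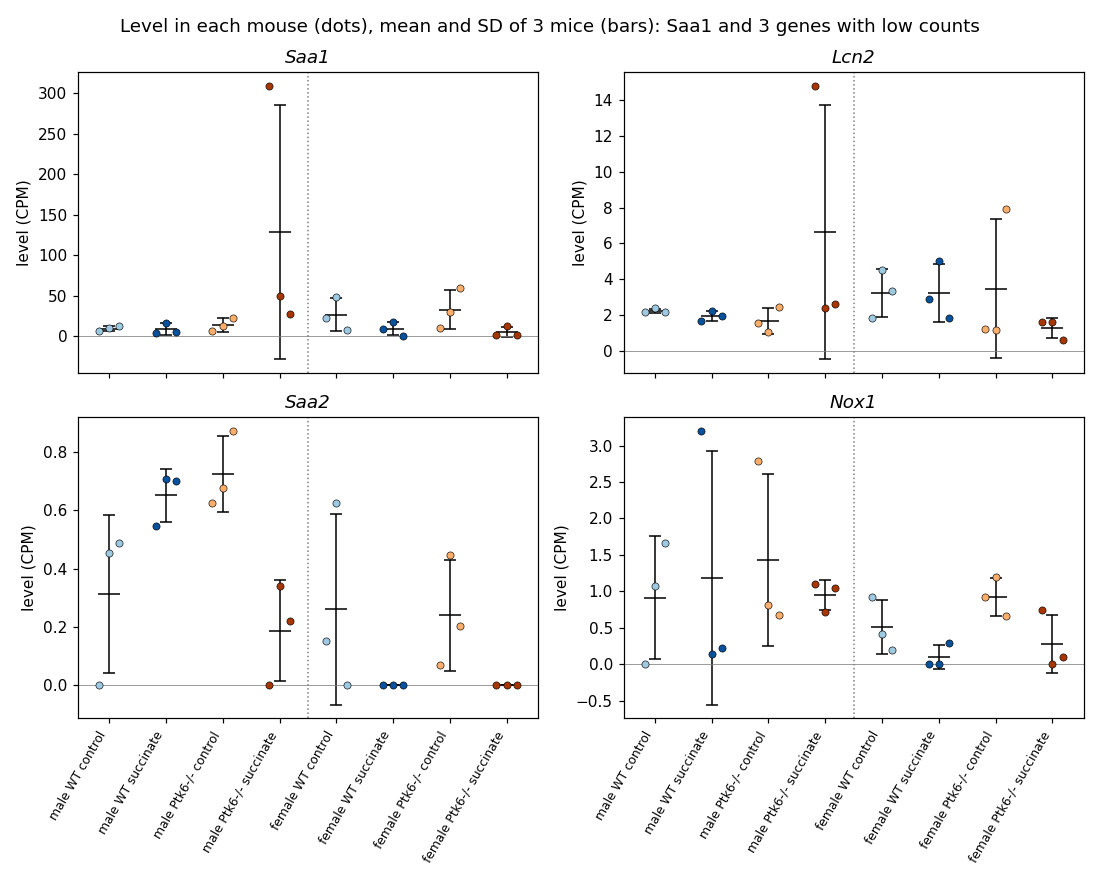
Levels of *Saa1*, *Lcn2*, *Saa2* and *Nox1* in CPM (vertical axes, linear) by group, with 1 dot for each mouse and bars for the mean and SD of 3 mice. A single male *Ptk6*-/- mouse on succinate stands at 310 CPM for *Saa1* and 14.8 CPM for *Lcn2*, and *Saa2* is at 0 in all 6 females on succinate.

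With all 24 libraries in 1 fit, 158 of 21694 genes tested were called for succinate at an adjusted p under 0.05 and a change of at least 2-fold (0.728%), 136 of them higher (0.627%) and 22 lower (0.101%). Among the 10 genes 4 were called: *Duoxa2* and *Gpx2* higher, and *Nos2* and *Saa2* lower, the last resting on the groups at 0 counts and lost in 17 of the 24 fits that left out 1 library, all but those without replicate 1 of the male WT controls, replicate 1 of the male WT mice on succinate, replicate 3 of the female WT controls or of the female WT mice on succinate, replicate 1 or 3 of the female *Ptk6*-/- controls or replicate 1 of the female *Ptk6*-/- mice on succinate. A further 2, *Duox2* and *Dmbt1*, were close to the thresholds. The 10 genes split evenly into 5 higher and 5 lower, with a median log2 difference of -0.11 (-0.00 over all genes tested). Without the 3 libraries that stood apart only *Duoxa2* was called.

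In the comparisons of 3 mice with 3, edgeR called none of the 10 genes. In WT males 0% of all genes were called, the treatments did not overlap in 8.77% of genes (4.62% higher and 4.15% lower), and they did not overlap in 2 of the 10 genes, *Duoxa2* and *Saa2*, both higher. In *Ptk6*-/- males 0% were called and 23% did not overlap (11% higher, 12% lower), with 4 of the 10 genes among them (*Duoxa2*, *Gpx1* and *Saa1* higher, *Saa2* lower). The slope of a library's levels with gene length was 0.079 to 0.111 in the controls of these males and -0.155 to 0.040 on succinate, without overlap. In WT females 0% were called and 13.3% did not overlap (5.96% higher, 7.31% lower), again with 4 of the 10 (*Duox2* and *Duoxa2* higher, *Nos2* and *Dmbt1* lower). In *Ptk6*-/- females 0.0879% were called and 21.2% did not overlap (11.2% higher, 10.1% lower), with 3 of the 9 genes tested among them, *Duoxa2* higher and *Nos2* and *Dmbt1* lower. *Duoxa2* was the gene found in all 4 lists. At an unadjusted p under 0.05 there were 4 of 10 genes in WT males (4.07% of all genes), 5 of 10 in *Ptk6*-/- males (7.75%), 5 of 9 tested in WT females (7.77%) and 4 of 9 in *Ptk6*-/- females (10.7%). DESeq2, which made more calls over all genes, called 1 (*Duoxa2*) in WT males (0.245% of all genes), none in *Ptk6*-/- males (0.206%), 3 in WT females (*Duox2*, *Duoxa2*, *Nos2*; 1.37%) and 3 in *Ptk6*-/- females (*Duoxa2*, *Nos2*, *Dmbt1*; 2.24%).

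**Figure D3:**
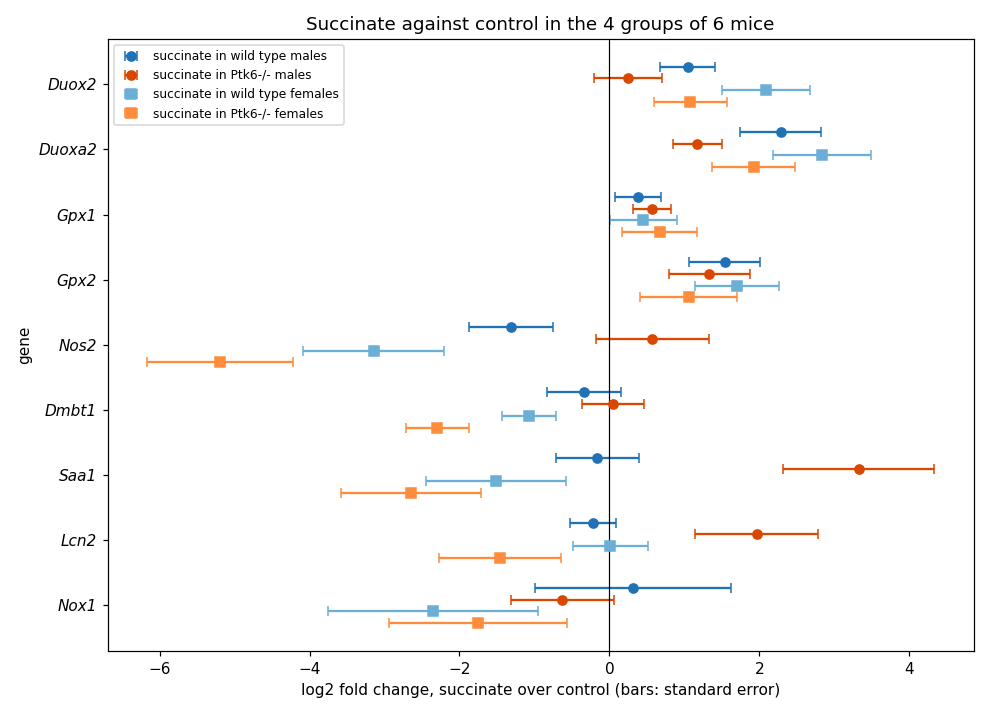
Log2 fold change of succinate over control (horizontal axis) for 9 of the genes (vertical axis) in WT and *Ptk6*-/- males (circles) and females (squares), with bars for the standard error; *Saa2* is left out because groups were at 0 counts. *Duoxa2* and *Gpx2* lie to the right of 0 in all 4 comparisons, and *Nos2* runs from 0.57 in *Ptk6*-/- males to -5.20 in *Ptk6*-/- females.

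Genotype differences were not called by edgeR for any of the genes, and *Dmbt1* is given first because its genotypes did not overlap among the controls of both sexes. In control males, the *Ptk6*-/- mice had 1974, 1008 and 1691 CPM of *Dmbt1* and the WT mice 881, 875 and 908 CPM, and in control females 1466, 1930 and 1761 CPM against 681, 723 and 427 CPM. Every *Ptk6*-/- control was above every WT control of its sex. The sum of the goblet cell markers was higher in the same comparison in males, at 7409 to 8362 CPM in the WT and 10102 to 12873 CPM in the *Ptk6*-/- controls. Its members went both ways: *Muc2* was called (1.31, edgeR adjusted p = 0.0378), whereas *Fcgbp* (0.45), *Clca1* (-0.01) and *Tff3* (-0.78) were not. In females the sums overlapped (8135 to 9889 and 7176 to 15955 CPM), and the part of these markers in the *Dmbt1* level was not tested. Proximal markers summed to 506 to 559 CPM in the WT and 591 to 751 CPM in the *Ptk6*-/- male controls, also without overlap, and their part in the genotype differences of *Duox2*, *Dmbt1* and *Gpx1* in these males was not tested. Between the female controls, epithelial markers summed to 12445 to 14445 CPM in WT and 8119 to 12139 CPM in *Ptk6*-/- mice, and neutrophil markers to 1.20 to 1.39 and 2.29 to 3.73 CPM, both without overlap, and the part of these in the genotype differences of *Dmbt1* and *Nos2* was not tested. The log2 difference was 0.79 ± 0.25 in control males (edgeR adjusted p = 0.102) and 1.53 ± 0.32 in control females (adjusted p = 0.367), and averaged over sex and treatment 0.94 ± 0.22 (adjusted p = 0.197). It was called in control females by DESeq2 (adjusted p = 3.45e-04) and by edgeR without replicate 3 of the female *Ptk6*-/- controls (adjusted p = 0.0275), and over all libraries without replicate 1 of the male WT mice on succinate (1.15, adjusted p = 0.00857). *Nos2* was higher in *Ptk6*-/- controls by 0.91 ± 0.34 in males and 1.26 ± 0.41 in females, with no overlap in the females. *Duox2* was higher by 1.06 ± 0.32 in control males, with no overlap, and by 1.15 ± 0.59 in control females. *Gpx1* went the other way, at -0.49 ± 0.13 in control males, where the genotypes did not overlap, and -0.49 ± 0.35 in control females. By FPKM the *Gpx1* ranges in control males overlapped (56.7 to 138 in WT, 90.7 to 102 in *Ptk6*-/-). Over 13 alternative settings its difference there was -0.50 to -0.05, and that of *Dmbt1* 0.51 to 1.18. The slope of a library's levels with gene length was -0.053 to 0.008 in the WT and 0.079 to 0.111 in the *Ptk6*-/- male controls, without overlap.

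None of these genotype differences was called by edgeR, where 0.739% of all genes were called in control males and 0.0158% in control females. The libraries did not overlap for 4 of the 10 genes in control males (31.4% of all genes, 16.5% higher and 14.9% lower), namely *Duox2*, *Saa2* and *Dmbt1* higher and *Gpx1* lower, and for *Nos2* and *Dmbt1* higher, in control females (18.9%, with 8.51% higher and 10.3% lower). At an unadjusted p under 0.05 there were 4 of 10 genes in control males (25.2% of all genes) and 2 of 9 in control females (11.1%), and DESeq2 called *Duox2* in the males, where it called 1.62% of all genes, and *Dmbt1* in the females, where it called 1.38%. Among mice on succinate 0% of all genes were called in either sex, with no overlap for 3 of 10 genes in males (8.66%, with 2.78% higher and 5.88% lower), *Saa1* and *Lcn2* higher and *Saa2* lower, and for *Lcn2*, lower, in females (10.8%, with 6.31% higher and 4.47% lower). In the same males goblet cell markers summed to 8323 to 9637 CPM in the WT and 10944 to 13774 CPM in the *Ptk6*-/- mice and neutrophil markers to 7.77 to 9.90 and 2.45 to 4.39 CPM, both without overlap, and their part in these genotype differences was not tested. In the females on succinate, stem cell markers summed to 152 to 294 CPM in WT and 468 to 533 CPM in *Ptk6*-/- mice, without overlap. Goblet cell markers summed to 8470 to 12463 and 7736 to 8468 CPM there, also without overlap. The part of both in the *Lcn2* difference of these females was not tested. That difference was -1.36 to -0.42 over 13 alternative settings. At an unadjusted p under 0.05 there were 2 of 10 genes in these males (2.72%) and 1 of 8 in these females (4.52%), and DESeq2 called *Saa1* in the males (0.354% of all genes) and none in the females (0.146%). Averaged over all libraries, 0.0184% of genes were called for genotype and none of the 10, with 3 of 10 at an unadjusted p under 0.05 (13.4%). The difference between the succinate effects of the genotypes was called for 0% of all genes in either sex and for none of the 10 by edgeR, with 1 of 10 (*Saa1*, 3.35 ± 1.43) at an unadjusted p under 0.05 in males (3.95%) and 0 of 10 in females (8.21%). DESeq2 called none of the 10 either, with 0.489% of all genes in males and 0.258% in females. The *Saa1* value fell to 1.64 without replicate 1 of the male *Ptk6*-/- mice on succinate and was up to 4.31, without replicate 2 of the male WT mice on succinate.

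Between the sexes, 0.36% of all genes were called over the 24 libraries, and among the 10 genes *Nos2* and *Saa2*. The *Saa2* call rests on 0 counts in all 6 females on succinate, and it was lost without replicate 2 or 3 of the male WT controls, replicate 2 of the male WT mice on succinate, replicate 3 of the male *Ptk6*-/- controls or replicate 2 of the male *Ptk6*-/- mice on succinate (adjusted p up to 0.0593). *Nos2* was lower in females by a log2 difference of -2.11 ± 0.47 (adjusted p = 0.0489). Its range was 72.8 to 396 CPM in the female controls and 100 to 402 CPM in the male controls, which overlapped, and 1.87 to 35.8 CPM in the females and 26.0 to 1056 CPM in the males on succinate. The sets on succinate overlapped as well. The call was lost when any 1 of 19 of the 24 libraries was left out (adjusted p up to 0.109), that is each but replicate 3 of the male WT, 1 and 3 of the male *Ptk6*-/-, 3 of the female WT and 1 of the female *Ptk6*-/- mice on succinate, and without the 3 libraries that stood apart (adjusted p = 0.0651). *Dmbt1* was lower in females by -0.96 ± 0.22 (adjusted p = 0.0548), and *Duoxa2* was at 0.82 ± 0.29 (adjusted p = 0.196). Over 12 alternative settings the *Duoxa2* value was 0.22 to 0.95. The difference between the succinate effects of the sexes was called for 0.0738% of all genes and for none of the 10 by edgeR, with 5 of 10 at an unadjusted p under 0.05 (8.27%), all 5 of them more negative in females: *Nos2*, *Saa1*, *Saa2*, *Dmbt1* and *Lcn2*. DESeq2 called 3, *Nos2*, *Saa1* and *Saa2*, and 0.954% of all genes. The sex by genotype difference was called for 0% of genes by edgeR and 0.0876% by DESeq2 and for none of the 10 by either, and *Saa1* (-2.43 ± 1.00) was the 1 gene at an unadjusted p under 0.05 (4.58%). That value was -1.55 without replicate 1 of the male *Ptk6*-/- mice on succinate and -3.20 without replicate 2 of the female *Ptk6*-/- mice on succinate.

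**Figure D4:**
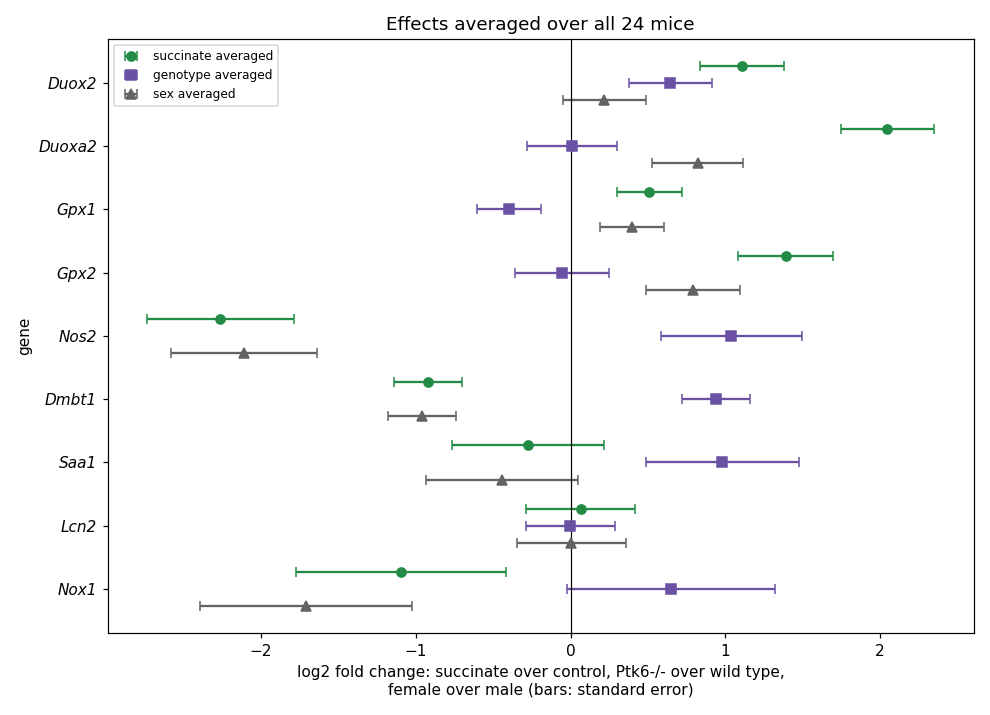
Log2 fold changes averaged over the 24 mice (horizontal axis) for 9 of the genes (vertical axis), for succinate over control (circles), *Ptk6*-/- over WT (squares) and female over male (triangles), with bars for the standard error. *Duoxa2* (2.05) and *Nos2* (-2.26) lie farthest from 0 for succinate.

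Other cell types and regions moved with some of these groups. In WT females the epithelial markers summed to 12445 to 14445 CPM in the controls and 5992 to 10148 CPM on succinate, and the enterocyte markers to 12654 to 17498 and 6858 to 11476 CPM, without overlap, in the mice in which *Nos2* and *Dmbt1* were low. In *Ptk6*-/- females both overlapped between treatments (8119 to 12139 and 6984 to 8823 CPM, and 5671 to 15492 and 3744 to 6883 CPM). In *Ptk6*-/- males the enterocyte sum went the other way, from 5691 to 9132 CPM in the controls to 9395 to 11452 CPM on succinate, without overlap. This was the group in which *Saa1* was high, and in WT males the enterocyte sum overlapped. Its members split in *Ptk6*-/- males, with *Apoa4* (0.94) and *Fabp2* (0.53) higher and *Alpi* (-0.60) and *Sis* (-0.44) lower, none of them called. Heart muscle markers summed to 11.6 to 29.8 CPM in the *Ptk6*-/- male controls and 35.8 to 194 CPM on succinate, without overlap. They overlapped between treatments in the other 3 combinations. Markers of tuft cells (*Dclk1*, *Trpm5*, *Pou2f3* and *Il25*) summed to 37.0 to 135 CPM in the 6 females on succinate and 10.9 to 20.7 CPM in the 6 female controls. In males they summed to 15.7 to 18.1 CPM in the WT controls and 19.8 to 30.5 CPM on succinate, and in *Ptk6*-/- males the medians were 14.8 and 25.5 CPM, with all 3 mice on succinate (22.8 CPM or more) above their controls. Like *Duoxa2*, the sum of the tuft cell markers was therefore higher on succinate without overlap in all 4 combinations of sex and genotype. Its members differed in *Ptk6*-/- males, where the log2 difference was 1.04 for *Trpm5*, 0.14 for *Pou2f3* and -0.34 for *Dclk1*, none of them called. Markers of the distal small intestine summed to 1911 to 3342 CPM in the WT female controls and 469 to 1713 CPM on succinate, and to 933 to 2908 and 399 to 725 CPM in the *Ptk6*-/- females. They were thus lower, without overlap within either genotype, in the same mice in which *Nos2* and *Dmbt1* were low. Lung markers summed to 10.4 to 16.5 CPM in the *Ptk6*-/- female controls and 5.88 to 9.92 CPM on succinate, without overlap, and overlapped between treatments in the other 3 combinations. Stem cell markers summed to 161 to 410 CPM in the *Ptk6*-/- female controls and 468 to 533 CPM on succinate, without overlap, and overlapped between treatments in the other 3 combinations. Proximal markers summed to 506 to 559 CPM in the WT male controls and 261 to 463 CPM on succinate, without overlap, and overlapped between treatments in the other 3 combinations. Macrophage markers, from cells that can also make *Nos2*, summed to 163 to 417 CPM in the females on succinate and 241 to 468 CPM in the female controls. The 8 neutrophil markers summed to 1.20 to 1.39 CPM in the WT female controls and 1.98 to 7.98 CPM on succinate, and to 7.65 to 10.2 CPM in the *Ptk6*-/- male controls and 2.45 to 4.39 CPM on succinate, the group in which *Saa1* was high. Neither pair of groups overlapped. In the other pairs they summed to 2.59 to 7.87 and 7.77 to 9.90 CPM (WT males) and to 2.29 to 3.73 and 2.92 to 42.1 CPM (*Ptk6*-/- females), with overlap in both. Of these markers *Ly6g* was above 3 counts in 3 libraries and *Csf3r* in 24. Of the 6 liver markers, from the organ that makes most circulating SAA, the sum was 0.97 to 17.7 CPM over all libraries, and it was 8.78 CPM in replicate 1 of the male *Ptk6*-/- mice on succinate, the lowest of its group. *Alb* was above 3 counts in 2 libraries. The part of these cell types and regions in the results was not tested.

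Between mice of the same group, some of the genes varied together. After the group means were taken out of log2(CPM + 1), *Saa1* and *Lcn2* were correlated over the 24 mice (Pearson r = 0.712, adjusted p = 0.0185; Spearman rho = 0.67, adjusted p = 0.0326; permutation of mice within groups, 2-sided, adjusted over 5 pairs). The coefficient was 0.821 in the 12 males and 0.629 in the 12 females, and 0.536 without the 2 mice farthest from the median of *Saa1*. It lost significance without the 3 libraries that stood apart (0.539, adjusted p = 0.135), and without any 1 of these mice: replicates 1 (0.592, adjusted p = 0.0671), 2 (0.713, 0.0645) and 3 (0.679, 0.0645) of the male *Ptk6*-/- group on succinate, replicate 3 of the female WT group on succinate (0.701, 0.0513) and replicate 3 of the female *Ptk6*-/- controls (0.713, 0.0515). *Duox2* and *Lcn2* were inversely related (r = -0.569, adjusted p = 0.0407; rho = -0.569, adjusted p = 0.0451), with -0.581 in males and -0.559 in females, but r was -0.295 without the 2 mice farthest from the median of *Duox2*, so that this relation rests on those mice, and 13 of the 24 fits that left out 1 mouse lost significance. The neighbours *Duox2* and *Duoxa2* did not pass this test (r = 0.378, adjusted p = 0.247; rho = 0.301, adjusted p = 0.303; 0.173 without the 2 farthest mice). Neither did *Saa1* and *Saa2* (r = 0.234, adjusted p = 0.325; rho = 0.235, adjusted p = 0.317; 0.585 without the 2 farthest mice) nor *Duox2* and *Nos2* (r = 0.432, adjusted p = 0.132; rho = 0.471, adjusted p = 0.0768; 0.236 without the 2 farthest mice).

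**Figure D5:**
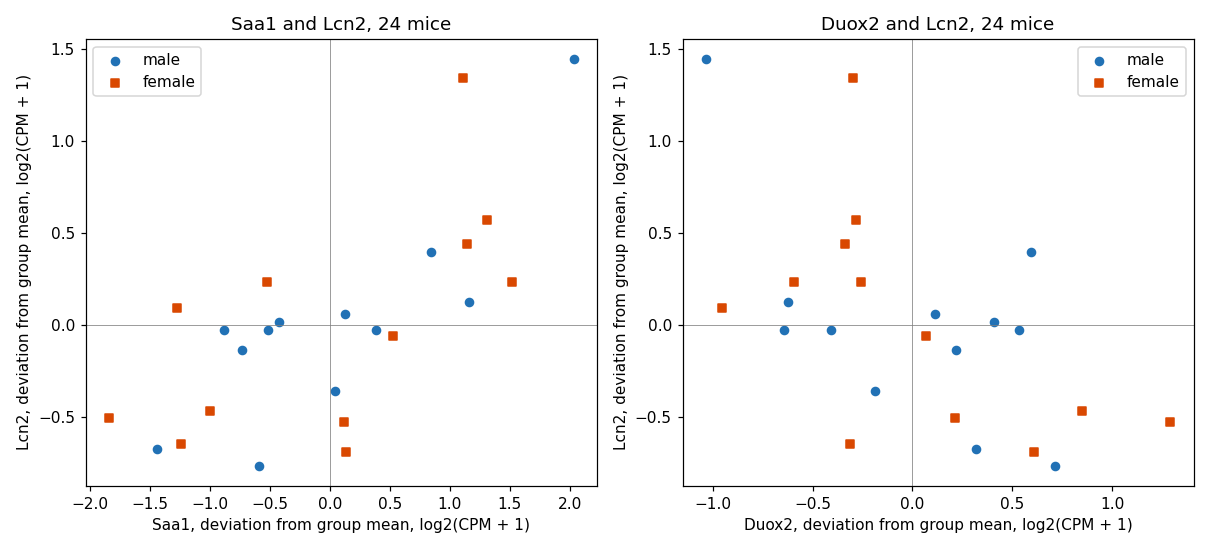
Deviation of each of the 24 mice from its group mean in log2(CPM + 1), for *Saa1* (horizontal) and *Lcn2* (vertical) at left and *Duox2* (horizontal) and *Lcn2* (vertical) at right, with males as circles and females as squares. The left panel rises (r = 0.712) and the right panel falls (r = -0.569), and the male at the far end of both is replicate 1 of the *Ptk6*-/- mice on succinate.

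Genes that work with these 10 were followed as lists. Of 12 oxidases and oxidase partners tested for succinate, 1 rose and none fell: *Duoxa1*, the maturation factor of DUOX1, by 2.32 ± 0.44 (adjusted p = 0.0092), from 0.155 to 4.30 CPM in the 12 controls to 2.11 to 18.1 CPM on succinate, while *Duox1* itself was at 1.31 CPM or less. *Duoxa1* shares the 695 bases named above with *Duoxa2*, and the part of that overlap in its value was not tested. *Rac2*, for a small GTPase of the phagocyte oxidase, was at 0.51 (adjusted p = 0.0737). Of 17 genes that remove peroxide or superoxide, none was called, and 16 were higher and 1 lower on succinate. Their median log2 difference was 0.39 (-0.00 over all genes). *Prdx1* was at 0.71 (edgeR adjusted p = 0.117), *Sod3* at 0.55 (adjusted p = 0.171) and *Cat*, for catalase, at -0.81 (adjusted p = 0.184). In *Ptk6*-/- males *Gpx4* was at 1.75 and *Cat* at -0.70. The slopes with gene length did not overlap between treatments in these males, and their part in this list was not tested. None was called among 11 targets and regulators of NRF2 (median -0.06), 7 genes of selenoprotein synthesis (-0.19), which GPX1 and GPX2 need, and 7 genes of nitric oxide and arginine (0.10).

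Of 10 other acute-phase genes tested, none was called for succinate (median 0.18). Between the sexes 1 was higher in females (*Serpina3n*, 1.15, adjusted p = 0.0491) and 1 lower (*Saa3*, -1.92, adjusted p = 0.0157). None of 7 genes of peroxidases and neutrophil granules was called for succinate, and since groups were at 0 counts for most of them no median is given. For the difference between the sexes' succinate effects the 1 call among them, *S100a8*, also rests on groups at 0 counts. None of 16 inducing cytokines and regulators was called for succinate (median -0.22). The cytokine gene *Il17a* was at -2.68 (adjusted p = 0.208) and *Socs3* at -0.74 (adjusted p = 0.179). Of 12 epithelial genes that respond in the same settings, *Fut2*, a fucosyltransferase, rose (2.22, adjusted p = 5.04e-04), and the bactericidal lectins *Reg3g* (-2.03, adjusted p = 0.011) and *Reg3b* (-1.83, adjusted p = 0.0297) were lower when averaged over all mice. Between the sexes *Fut2* was called too, higher in females (1.65, edgeR adjusted p = 0.0159). *Reg3g* and *Reg3b* also differed between the sexes in their succinate effect (-4.35 and -4.39, adjusted p = 0.0383 for both). In single combinations the log2 difference of *Reg3b* with succinate was -4.13 in WT and -3.96 in *Ptk6*-/- females, and -0.17 in WT and 0.95 in *Ptk6*-/- males, and that of *Reg3g* was -3.92, -4.52, -0.53 and 0.87 in the same order, none of them called. *Reg3b* was at 89.3 to 986 CPM in the 6 females on succinate and 3063 to 11106 CPM in the 6 female controls. For genotype none of the genes in these 9 lists was called, and all 12 of the epithelial genes were higher in *Ptk6*-/- mice, with a median log2 difference of 0.49 against -0.03 over all genes.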

How the data were processed

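Poly(A) RNA from the distal jejunum of 24 mice, named as biological replicates in the labels, was sequenced as stranded libraries. The authors trimmed reads with Cutadapt, mapped them with HISAT2 and assembled them with StringTie; the counts per gene were deposited without normalization, and the FPKM values were made by the authors with StringTie and ballgown. The submitters' processing notes name GRCm39, FastQC and StringTie; the counting program and its use of strand are not given in the sources used here. Replicate 1 of the male *Ptk6*-/- mice on succinate has distorted FPKM, so tests used counts.

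The tests ran in edgeR 4.0.16 (quasi-likelihood test, TMM scaling), under R 4.3.3, with DESeq2 1.42.0 and limma 3.58.1 for alternatives; Python 3.11.15 with pandas 2.3.3, scipy 1.17.1, Biopython 1.88 and matplotlib 3.10.9 gave correlations, promoter searches and plots. A gene was tested when 3 or more libraries had 10 or more counts. Calls needed a Benjamini-Hochberg adjusted p under 0.05, over all genes tested, and a change of at least 2-fold. There were 8 comparisons of 2 groups (6 libraries each) and 7 contrasts in 1 fit of all 24 libraries. The study's methods name DESeq2, which was an alternative here. Values at or under 3 counts were treated as a floor, which covers counting error only. Correlations used 1e+05 permutations.

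The 10 genes, the 9 lists and the marker lists (epithelium, enterocyte, goblet, Paneth, tuft, stem, neutrophil, macrophage, liver, heart muscle, lung, distal and proximal small intestine) were chosen with earlier results of these data known. Not each of the 10 genes is named in every comparison. Of a list, counts are given, with the genes called and otherwise up to 3 with the smallest p. One list member is not reported here. Alternatives were DESeq2, its size factors in edgeR, voom with sample quality weights, other filters, the replicate number as a block, a gene length offset, limma on log2(FPKM + 1) and log2(FPKM + 0.1), all libraries in 1 fit, and leaving out libraries.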

Additional observations from a re-analysis of the deposited data

Results flagged for a closer look

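For 2 of the scarce genes the groups of 3 mice did not overlap in 2 counterpart comparisons, and the differences had opposite directions. *Saa2* was higher on succinate in WT males (log2 difference 0.92) and lower in *Ptk6*-/- males (-1.55). Its 0 counts in males were in replicate 1 of the WT controls and replicate 1 of the *Ptk6*-/- mice on succinate. Both are among the libraries that stood apart. The value in *Ptk6*-/- males was -1.98 to -1.39 when any 1 library was left out. Seen by genotype, the same 12 libraries gave 1.03 in control males and -1.43 in males on succinate. The test of this difference, genotype by succinate in males, gave an unadjusted p of 0.133 and an adjusted p of 1, on 0 to 40 counts per library. *Lcn2* was higher in *Ptk6*-/- than in WT mice among males on succinate (1.75) and lower among females on succinate (-1.33). That difference was not tested among the mice on succinate alone; averaged over treatments, the sex by genotype difference of *Lcn2* was -1.25 ± 0.71 (unadjusted p = 0.0911, adjusted p = 1). In males it includes the mouse at 14.8 CPM, which rests on 54 counts.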

How the results depend on the processing

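Single genes were followed under the alternatives only in comparisons where their unadjusted p was under 0.05. None of these values reversed, 1191 kept their side of the thresholds, 61 newly passed and 68 newly missed them. Smaller differences were not followed. DESeq2 called 1 of the 10 genes for genotype in control males, 1 in control females and 1 in males on succinate, 1 for succinate in WT males, 3 in WT females and 3 in *Ptk6*-/- females, and 3 for the sex difference in the succinate effect, where edgeR called 0. Weighted voom called 1, 2 and 3 for the same genotype comparisons (577, 1972 and 1799 genes in all), 5 for succinate in WT males (1498), 3 in *Ptk6*-/- females (200) and 2 for genotype averaged (1539), so that it made more calls over all genes too. Limma on FPKM, with either pseudocount, called 1 for succinate in WT males (126 or 127 genes in all), 1 in *Ptk6*-/- females (33 or 39) and 0 for sex averaged (54 or 66). One fit of all libraries called 1 in WT females (87 genes in all) and 2 in *Ptk6*-/- females (132). Sex averaged gave 1 with a filter of 10 counts in every library, 1 with the replicate block, 1 with the length offset and block and 1 without the 3 libraries that stood apart; the last also gave 1 for succinate averaged. With the replicate block, succinate averaged gave 3 calls; same-numbered libraries shared only a number (r of deviations -0.509 to 0.357). Leaving out 1 library gave 1 to 6 calls for succinate averaged (88 to 539 genes in all), 0 to 3 for sex averaged (40 to 427), 0 to 1 for genotype averaged (2 to 89), 0 to 1 for sex by succinate (0 to 163), 0 to 4 for succinate in WT males (0 to 1077), 0 to 2 in WT females (0 to 597), 0 to 1 in *Ptk6*-/- females (0 to 29) and 0 to 1 for genotype in control females (0 to 1808). For succinate in WT males the 4 calls came without replicate 1 of the mice on succinate (*Duoxa2* 2.65, *Nos2* -2.20 and *Gpx2* 1.89 among them), and in WT females the 2 without replicate 3 (*Nos2* -4.98, *Gpx2* 2.12). Without replicate 1 of the *Ptk6*-/- females on succinate *Nos2* was at -6.98. The coefficients were -0.411 to -0.645 for *Duox2* and *Lcn2* (-0.413 on FPKM, -0.418 without the 3 libraries), 0.0894 to 0.501 for *Saa1* and *Saa2*, 0.592 to 0.763 for *Saa1* and *Lcn2* (0.539 without the 3), 0.312 to 0.554 for *Duox2* and *Nos2* (0.714 on FPKM) and 0.201 to 0.478 for *Duox2* and *Duoxa2*. The causes were not tested. Depth limits *Saa2* and *Nox1*, at 0 counts in some libraries.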
